A study of Mus musculus with 12 samples.

Results

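BAF250b, also known as ARID1B, is a subunit of SWI/SNF chromatin remodelling complexes, which use ATP to move or evict nucleosomes. BAF250b and the related BAF250a (ARID1A) are large DNA-binding subunits, and a complex carries one or the other of them. In mouse embryonic stem (ES) cells a specialised form of the complex is known to work alongside the transcription factors that keep the cells pluripotent. The series' title asks about the need for this subunit in keeping ES cells undifferentiated.

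The comparison described here is the one between BAF250b knockout and wild-type ES cells 72 h after passaging, and it takes in 6 of the 12 arrays of the series, chosen by their labels. Wild-type cells, the parental line, gave 2 arrays (BAF250b WT #3A and #3B), knockout clone 4 gave 2 (BAF250b-/- #4A and #4B), and knockout clone 7 gave 2 (BAF250b-/- #7A and #7B). The other 6 arrays hold the same 3 lines at 18 h, where both wild-type arrays are labelled #3A. All lines share 1 background, a mix of B6, 129 and CD1, and a blastocyst origin at 3.5 dpc; the labels also carry an age of 2 months without saying of what. Each genotype thus rests on 1 wild-type line or 2 clones, so that genotype and differences between lines cannot be told apart. The labels do not explain the letters A and B or say whether the arrays of a line came from separate cultures, so a p-value here may reflect only technical spread.

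Each array was a 2-colour Agilent slide with 60-base probes. The sample was labelled with Cy3 and set against one Cy5-labelled reference pool of 11 mouse cell lines, with no dye swap. A value below is the log2 ratio of sample over that pool. At 72 h the median sample intensity lay between 513 and 602, against 403 to 413 for the negative-control spots. The deposited files name no gene for any of the 42006 probes, so the probe is the unit, and neither the deleted transcript nor markers of ES cells could be looked up to check the labels. RNA came from whole wells, so fewer cells of a type and less RNA per cell cannot be told apart.

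On the second clone 7 array at 72 h a streak in the reference channel shifted a band of the slide. The SD of the difference between the 2 clone 7 arrays was 0.254 over all probes and 0.143 outside the 9.59% of probes in that band, against 0.106 between the wild-type arrays and 0.108 between the clone 4 arrays. The wild-type and clone 4 arrays were extracted from the scans on one day and the clone 7 arrays on another, so that day and clone 7 cannot be told apart. Clone 4 against wild type is a comparison within one day.

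The probes that moved most are shown first, by a 30-base stretch of each, because the sequence is the only identity the files give them. These are the 3 probes that were highest, and then the 3 that were lowest, in knockout cells. Capitals mark AATAAA, the usual polyadenylation hexamer, where the stretch holds it.
Z00035372-1: AATAAAggctgaagtataggctgttaaaaa
Z00000270-1: atacaaatagctgtatggtttccactatac
Z00061976-1: aagagaggaatttcccaaatgatccaaatc
Z00003765-1: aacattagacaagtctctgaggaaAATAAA
Z00004353-1: gtaatgacattttgtcatgtcaaactgtga
Z00011711-1: tatggctcgcatttccacattgtatgtgca
AATAAA, read on the probe's own strand, was present in 5 of the 24 leading probes and in 6.75% of all probes tested.

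A large share of the probes differed between knockout and wild-type cells at 72 h. Of 42004 probes tested, 13494 passed an adjusted p of 0.05 (limma with Benjamini-Hochberg adjustment), which is 32.1%. Of these, 5907 were higher in knockout cells (14.1% of those tested) and 7587 were lower (18.1%). Most differences were small: the median size among the called probes was 0.36 on the log2 scale, and 855 probes, 2.04% of those tested, were called and differed at least 2-fold. Of these, 363 were higher and 492 lower, and 22 and 29 reached 4-fold. The median difference over all probes was -0.01. Among the called probes 12924 also had all 4 knockout arrays on one side of both wild-type arrays, a separation that 43.4% of all probes with 6 values showed. From the ratios, 43.8% of the called probes were on the higher side, and from the sample channel without the reference 56.4%. The lean towards lower probes thus turned when the reference was left out. With median centring the share was 37.8%, and with no background correction 42.8%.

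**Figure D1:**
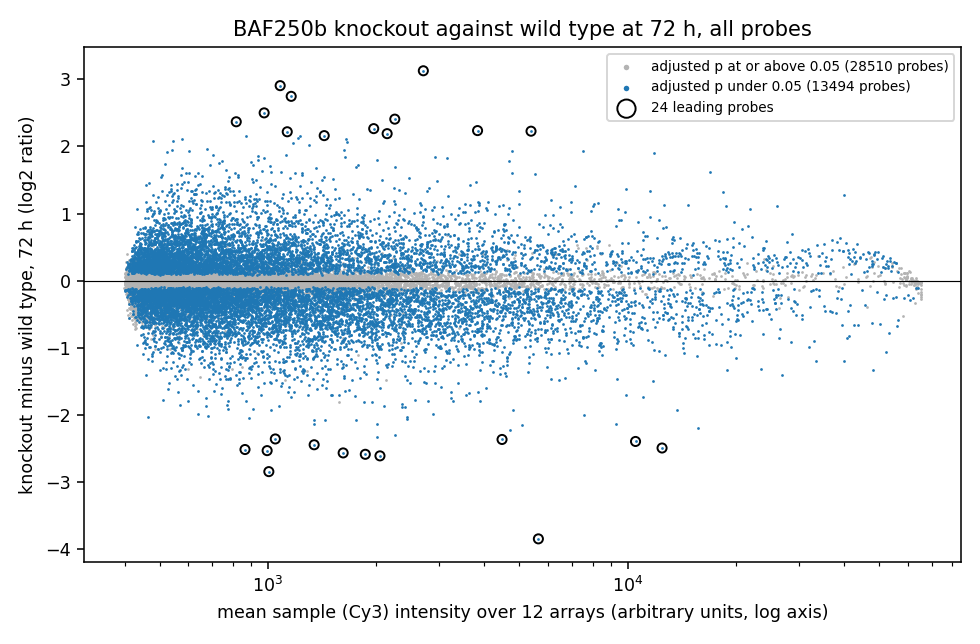
Each point is 1 probe: mean Cy3 intensity over the 12 arrays (log axis, arbitrary units) against the knockout minus wild-type difference at 72 h (log2 ratio). Blue points are the 13494 probes called at an adjusted p under 0.05, grey points the rest, and rings the 24 leading probes, which lie beyond 2 on either side and well outside the bulk.

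Each clone alone gave a similar picture of sizes. Clone 4 differed from wild type at 11223 of 42006 probes, 26.7%, with 4742 higher and 6481 lower. In the sample channel alone its share higher was 48.2%, in place of 42.3%. Clone 7 differed at 14021 of 42004, 33.4%, with 6033 higher and 7988 lower; with the sample channel alone the share higher was 56.9% in place of 43.0%. At least 2-fold differences numbered 829 in clone 4 (1.97%) and 1039 in clone 7 (2.47%). The 2 clones were set against the same 2 wild-type arrays, so that these counts are not independent. Called in the same direction in each clone, and in the pooled comparison, were 9767 probes.

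**Figure D2:**
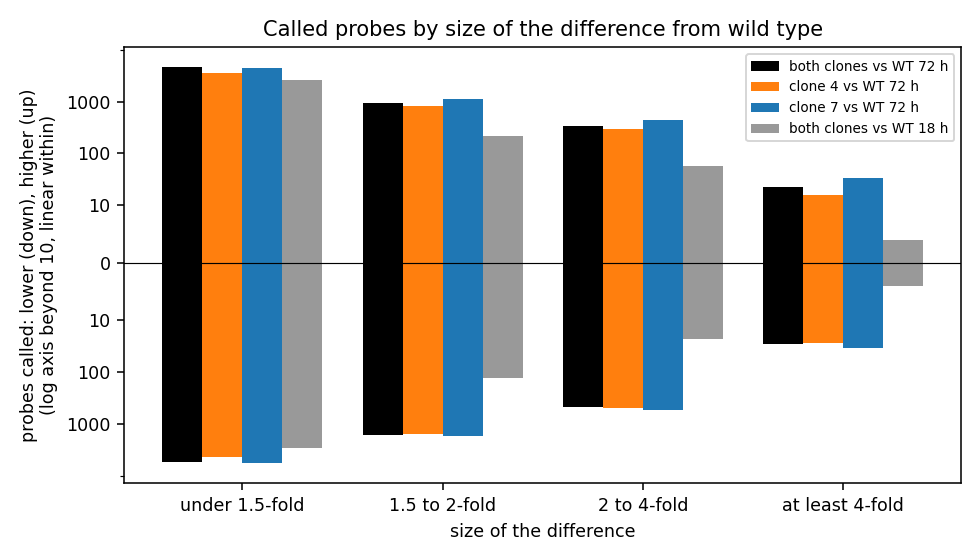
Number of called probes (adjusted p under 0.05) by size of the difference from wild type, with higher probes above the zero line and lower probes below it, on an axis that is logarithmic beyond 10. Both clones at 72 h have more lower than higher probes between 2 and 4-fold (463 against 341 pooled), and the 18 h comparison, in grey, has few probes past 2-fold.

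The leading 24 probes are the 12 highest and the 12 lowest among those called in the pooled comparison and in each clone, with all knockout arrays beyond both wild-type arrays. The 12 higher probes differed by 2.16 to 3.13 and the 12 lower probes by 2.36 to 3.84 on the log2 scale. None was saturated at 72 h.

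Probe Z00035372-1 rose the most. Its log2 ratio was 0.73 and 0.51 on the wild-type arrays, 3.72 and 3.71 on the clone 4 arrays, and 3.81 and 3.75 on the clone 7 arrays. The knockout arrays lay close together and far above wild type, an 8.74-fold difference (log2 3.13, SE 0.08, adjusted p = 1.21e-08, limma). Its clones did not differ at the threshold (clone 7 minus clone 4 0.07, adjusted p = 0.711).

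Probe Z00000270-1 rose in both clones but to different levels. Wild-type arrays read 0.19 and 0.23, clone 4 arrays 2.38 and 2.43, and clone 7 arrays 3.87 and 3.78. No 2 groups overlapped. The difference from wild type was 2.20 in clone 4 and 3.62 in clone 7, and the gap between the clones was 1.42 (SE 0.09, adjusted p = 0.000406, limma). With no background correction the pooled difference was 1.91 in place of 2.91.

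Probe Z00061976-1 went from -0.13 and -0.07 in wild type to 2.38 and 2.55 in clone 4 and 2.79 and 2.86 in clone 7. That is a 6.71-fold rise (log2 2.75, SE 0.06), slightly larger in clone 7 (clone difference 0.36, adjusted p = 0.0239, limma). Among the other 9 higher probes the wild-type arrays spanned -2.71 to 3.29, so the leading set holds transcripts well below as well as well above the reference pool. Without background correction Z00068163-1 differed by 1.53 and Z00030179-1 by 1.54, against 2.50 and 2.37 with it. Z00024225-1 had the highest levels, 3.16 and 3.29 in wild type and 5.17 to 5.83 in knockout cells. Z00023081-1 and Z00024088-1 sat lowest, near -2.6 in wild type and between -0.60 and -0.29 in knockout cells.

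Probe Z00003765-1 fell the most of all probes named. Wild-type arrays read 4.26 and 4.21, some way above the reference pool. Clone 4 arrays read 0.32 and 0.21 and clone 7 arrays 0.49 and 0.54. The fall was 14.4-fold (log2 -3.84, SE 0.04, adjusted p = 8e-10, limma), and the clones differed by 0.25 (adjusted p = 0.0297, limma). In the sample channel alone the difference was -5.95.

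Probe Z00004353-1 fell 7.18-fold, from -0.46 and -0.43 in wild type to -3.34 and -3.40 in clone 4 and -3.19 and -3.21 in clone 7. With no background correction its difference was -1.46 in place of -2.84, so the size of the fall depends on that step. It lies in the streaked band of the second clone 7 array; the clone difference was 0.18 (adjusted p = 0.0823, limma). Probe Z00011711-1 fell 6.10-fold with the tightest knockout values of the set: 0.27 and 0.24 in wild type, -2.39 and -2.33 in clone 4, and -2.34 and -2.37 in clone 7. The remaining 9 lower probes fell 5.12-fold to 6.00-fold. Without background correction Z00056888-1 stood at -1.71, Z00025186-1 at -1.65, Z00002490-1 at -1.32 and Z00036340-1 at -1.21, against -2.59, -2.53, -2.51 and -2.36 with it. Z00006843-1 started high, at 3.45 and 3.60 in wild type, and stayed above the pool in knockout cells at 0.93 to 1.38.

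**Figure D3:**
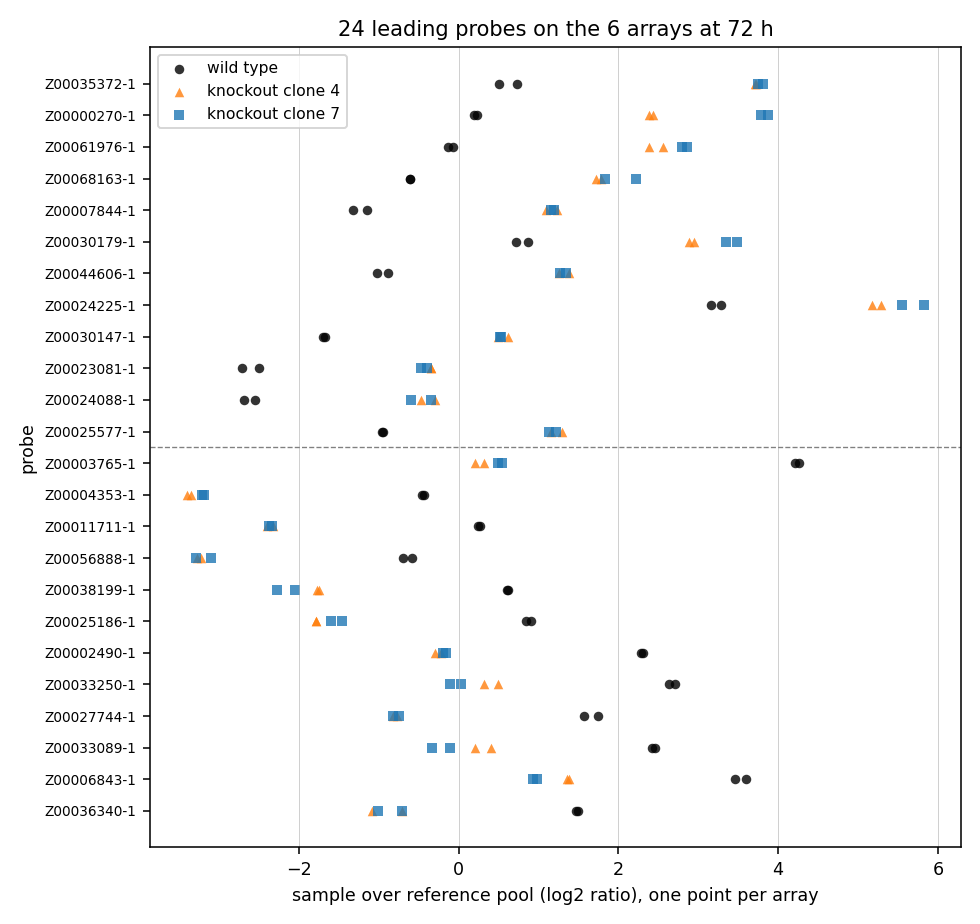
Log2 ratio of sample over reference pool for the 24 leading probes (rows; 12 higher above the dashed line, 12 lower below it), 1 point per array at 72 h: black circles wild type, orange triangles clone 4, blue squares clone 7. The rule for choosing the probes requires that the 4 knockout points stand apart from the 2 wild-type points in every row. The clones separate from each other in rows such as Z00000270-1 and Z00033250-1.

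Fewer probes differed between knockout and wild type at 18 h than at 72 h. At 18 h, 5981 of 42002 probes were called (14.2%), 89 of them at least 2-fold (0.212%). The test of the change in the knockout effect between the times called 10036 of 42000 probes, 23.9%. Of the 855 probes called at least 2-fold at 72 h, 805 had a knockout effect that differed between the times; since they were chosen for a large effect at 72 h, this count is a description and shows no trend over all probes. At 18 h, 422 of them were already called in the same direction and 42 in the opposite one.

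Among the 24 leading probes both kinds occur. At 18 h 11 of the 12 higher probes were already called, 10 of them in the same direction. Of the 12 lower probes 7 were called at 18 h, all in the same direction. Z00003765-1, the probe that fell most, was level between genotypes at 18 h (-0.06, SE 0.04, adjusted p = 0.426), with means of 4.33 in wild type, 4.26 in clone 4 and 4.28 in clone 7. Its fall belonged to the later time (change in effect -3.78, SE 0.06, adjusted p = 1.97e-08, limma). Z00004353-1 behaved alike, with 0.03 at 18 h (SE 0.04, adjusted p = 0.79) and -2.84 at 72 h. Z00023081-1 changed sides, from -0.37 at 18 h (adjusted p = 0.00416) to 2.22 at 72 h.

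The opposite case is the pair Z00033250-1 and Z00033089-1. Z00033250-1 was lower by 2.27 at 18 h and by 2.49 at 72 h, shown as differences of -2.27 and -2.49, and the change between the times, -0.22, did not pass the threshold (SE 0.09, adjusted p = 0.119). Z00033089-1 had -2.21 and -2.39, with a change of -0.19 (SE 0.11, adjusted p = 0.284, limma). A p that misses the threshold does not show that the effect stayed the same. Z00025186-1 was also low early, at -1.97, and went on to -2.53. Z00035372-1 and Z00068163-1 were up early, at 2.19 and 2.04. The change in effect passed the threshold for 11 of the 12 higher and 10 of the 12 lower probes; the third probe without a call was Z00024225-1 (0.65, adjusted p = 0.0558).

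**Figure D4:**
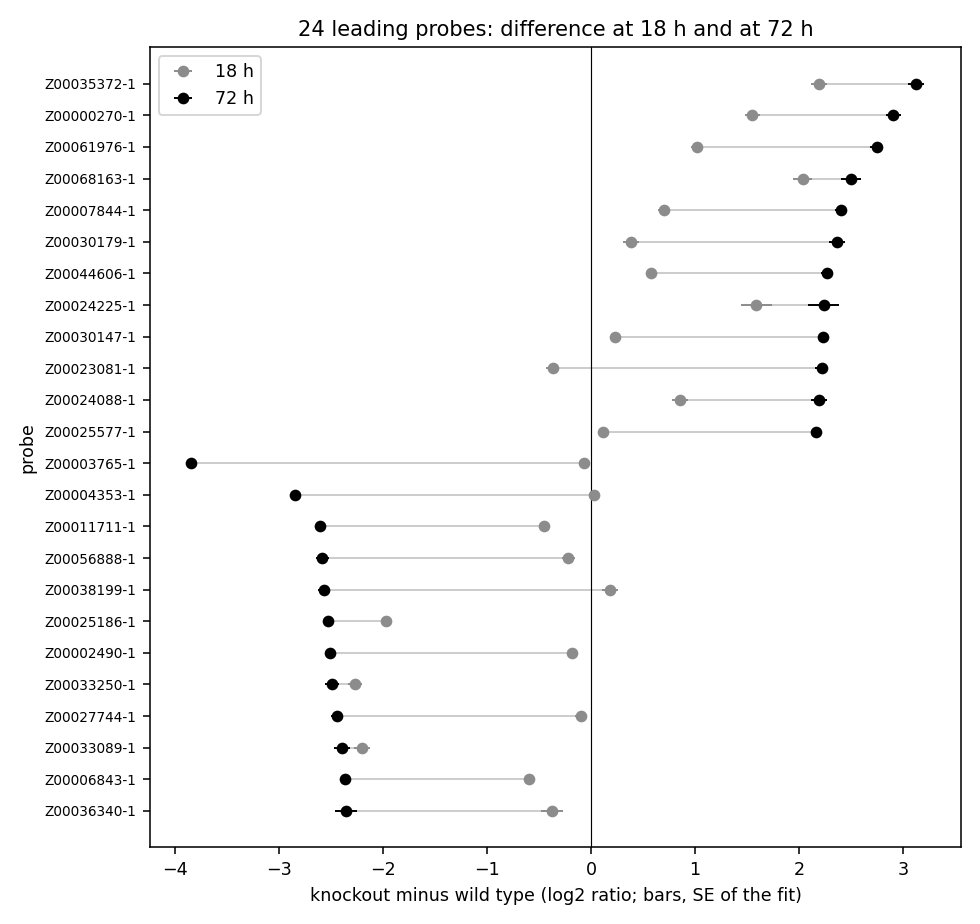
Knockout minus wild-type difference (log2 ratio, both clones pooled) of the 24 leading probes at 18 h (grey) and 72 h (black), with the SE of the fit as bars. Z00003765-1 and Z00004353-1 run from near 0 to their full fall, whereas Z00033250-1 and Z00033089-1 have nearly equal values at both times.

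The clones differed from each other at 72 h at 2043 of 42004 probes, 4.86%, with 1186 higher and 857 lower in clone 7, and at 13 probes (0.0309%) this was at least 2-fold. The count rests on single arrays: it was 927 without the second clone 7 array, 3751 without the first, 802 without the first clone 4 array and 564 without the second. The share higher in clone 7 was 58.1%, and 44.3% with no background correction and 32.4% with median centring, so no direction is drawn from it. Outside the streaked band the probes highest in clone 7 against clone 4 were Z00025473-1, Z00000270-1 and Z00006588-1, and the lowest were Z00052053-1, Z00027742-1 and Z00057849-1.

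Z00025473-1 is the clearest case in which pooling the clones hides a difference. It read 2.20 and 2.25 in wild type, 1.91 and 1.83 in clone 4, and 3.74 and 3.05 in clone 7. Clone 7 was above wild type by 1.17 (adjusted p = 0.000547) and clone 4 stood at -0.35 (adjusted p = 0.196, limma). The clone difference was 1.53 (SE 0.17, adjusted p = 0.00346), and 1.87 without the streaked array (adjusted p = 0.00011, limma). Z00006588-1 read -0.25 and -0.11 in wild type, 0.19 and 0.24 in clone 4, and 1.36 and 1.65 in clone 7, so that it rose in both clones and 1.29 further in clone 7. Z00052053-1 went the other way, with 2.03 and 2.25 in wild type, 1.92 and 2.01 in clone 4, and 1.14 and 0.82 in clone 7. Each of the 6 kept its call without the streaked array, with Z00027742-1 nearest the threshold (-0.66, adjusted p = 0.0453, limma).

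To group probes without gene names, those sharing any run of 20 bases on either strand were joined into families by sequence alone. There were 23 families of at least 6 probes, holding 209 probes. In none of them were some probes called higher and others lower; in 3 all members were called higher, in 4 all were called lower, and in 6 no member was called. Probes of a family can bind the same transcripts, so they are not separate measurements.

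The largest family had 38 probes, and all 38 were lower in knockout cells at 72 h, where 18.1% of all probes tested were called lower. Its median difference was -0.76, between -1.11 and -0.22, against -0.01 over all probes. The family's median log2 ratio was 2.89 and 2.87 on the wild-type arrays, 2.17 and 1.97 on the clone 4 arrays, and 2.20 and 2.07 on the clone 7 arrays. For each of the 38 probes the 4 knockout arrays lay below both wild-type arrays, as for 23.9% of all probes, and 35 were called lower in each clone. Of all probes, 15.4% were called lower in clone 4 and 19% in clone 7. At 18 h the family's median was -0.27, with 22 called lower (7.27% of all probes). The knockout effect was lower at 72 h than at 18 h for 33 (13.7% of all probes). The family's median sample intensity was 6825, against 583 over all probes. The shares given for all probes are thus those of mostly far dimmer probes.

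What the members share can be read from their letters. The longest run held by as many as 14 of the 38 was GTGGTAAAGCCTTT, and of the 11-base runs outside it that 14 members also hold, the first by alphabet was CATACTGGAGA. The 4 probes with the lowest values among the holders of each run are shown, with the run in capitals.
Z00058156-1: gtgatcaatGTGGTAAAGCCTTTccataca
Z00030917-1: gtgatcaatGTGGTAAAGCCTTTgcattcc
Z00060981-1: gtaatcaatGTGGTAAAGCCTTTgtacatc
Z00027095-1: gtaatcaatGTGGTAAAGCCTTTgtacgtc
Z00030738-1: cagaaaattCATACTGGAGAgaaaccttac
Z00026282-1: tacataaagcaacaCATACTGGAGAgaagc
Z00025747-1: agaagaacaCATACTGGAGAgaaaccattc
Z00059930-1: aaaagaacaCATACTGGAGAgaagccttac
As background, runs of this kind are well known from the coding sequence of C2H2 zinc finger genes: the first from within a finger and the second from the short linker that joins one finger to the next. C2H2 zinc finger proteins are a large family of DNA-binding proteins, many of them repressors. The files name no gene for these probes, and a match to letters does not settle what a probe measures.

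Over the whole array, 15 probes (0.0357%) held the first run on their own strand and none on the other. As 14 of them are members of the family just described, the run adds 1 probe to it, which was also lower. The 15 had a median of -0.82 and a range of -1.07 to -0.66 at 72 h; at 18 h 13 were called lower and none higher, with a median of -0.29. The second run was held by 23 probes (0.0548%), and by 1 more on the other strand. Of these 23, 14 are family members; of the 9 outside the family 5 were lower, none higher and 4 not called. The 23 had a median of -0.63 and a range of -1.01 to 0.12 at 72 h. At 18 h 8 of the 23 were called lower and 1 higher, with a median of -0.18. Over all probes 18.1% were called lower and 14.1% higher at 72 h, and 7.27% and 6.97% at 18 h. Mean sample intensity ran from 2359 to 41150 for the first run and from 426 to 19270 for the second. The median over all probes was 583. Z00058156-1 differed by -1.07 (SE 0.06), Z00030917-1 by -0.99 (SE 0.05) and Z00030738-1 by -1.01 (SE 0.10).

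The pair Z00033250-1 and Z00033089-1 belongs to another family, of 6 probes, and shows how far relatives can differ in size. Capitals mark the longest run that the pair shares.
Z00033250-1: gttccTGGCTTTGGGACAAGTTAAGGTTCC
Z00033089-1: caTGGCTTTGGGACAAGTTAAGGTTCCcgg
The wild-type arrays of this pair read 2.42 to 2.71, the clone 4 arrays 0.21 to 0.49 and the clone 7 arrays -0.34 to 0.03. Their differences from wild type were -2.49 and -2.39. The other 4 members were called lower too but by far less: Z00032684-1 by -0.37 (SE 0.06), Z00033379-1 by -0.30 (SE 0.10), and the last 2 by -0.20 and -0.19. The median of the family, -0.34, thus hides a wide split.

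Other families moved together by smaller amounts. Of all probes tested, 14.1% were called higher and 18.1% lower at 72 h, and 23.9% had a called change in effect. All 13 members of the third largest were higher (median 0.39, from 0.20 to 0.55), with array medians of 1.17 and 1.21 in wild type and 1.53 to 1.64 in knockout cells. A family of 6 led by Z00027452-1 was lower throughout (median -0.49), after a median of 0.16 at 18 h; its change in effect was called for all 6. The 6 probes led by Z00005005-1 were all higher (median 0.36), as were the 6 led by Z00026387-1 (median 0.20). The 6 led by Z00026195-1 were all lower, by a median of -0.25. These differences are well below 2-fold, as are most of the 13494 calls. The median sample intensity of these families ran from 995 (led by Z00026195-1) to 20328 (led by Z00027452-1). Over all probes it was 583, so the shares for all probes are those of mostly dimmer probes.

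**Figure D5:**
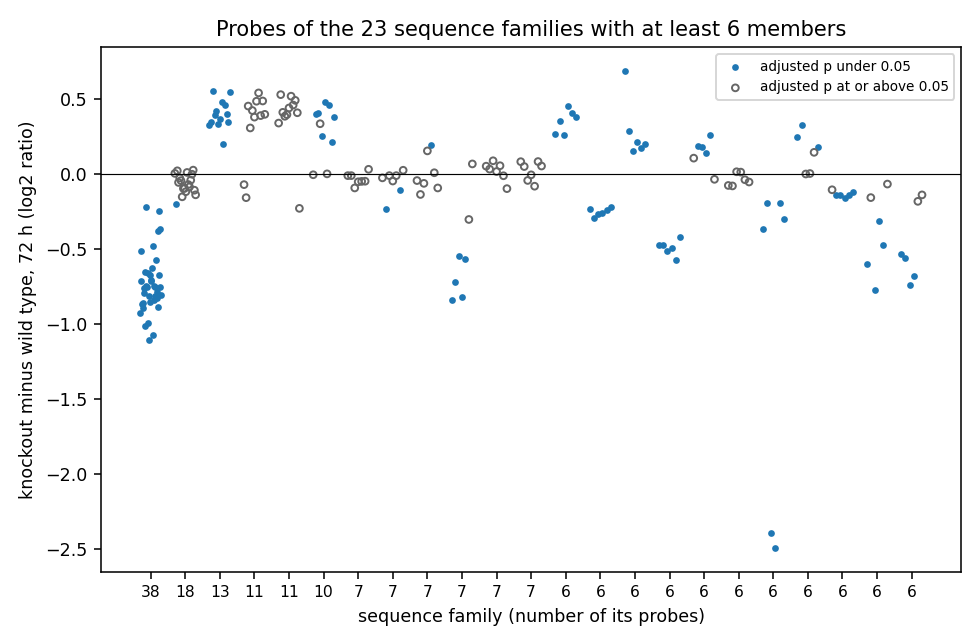
Knockout minus wild-type difference at 72 h (log2 ratio) of each probe in the 23 sequence families with at least 6 members, ordered by size; the number under each column is its count of probes. Filled points passed an adjusted p of 0.05 and open points did not; all 38 probes of the first column are below 0, and the 2 points near -2.5 are Z00033250-1 and Z00033089-1.

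Some probes could be placed, because their sequence matched RefSeq windows of 300 bases around transcript starts (GRCm38.p6), at 1 place among those windows. Where a probe ran past the end of a window, only its bases inside were matched, such as 28 in Z00059692-1. The rest of the genome was not searched. There were 391 such probes; 26 were called higher and 45 lower, 18.2% in all, below the 32.1% of all probes, and 2 of them differed at least 2-fold. They are a selection by position and not a sample of genes. Of the 12 lists of pathway and marker genes drawn up for these cells, with 274 entries, 2 genes had such a probe. Z00066694-1, antisense to the start of Dpf2, a SWI/SNF subunit, differed by -0.10 (SE 0.03, adjusted p = 0.0575). Z00065654-1, upstream of Bmpr2, a BMP receptor, differed by -0.09 (SE 0.05, adjusted p = 0.197, limma).

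The placed probes that moved most are shown by their last 30 bases, with the position of those bases and the strand of the probe. Whether a position is exonic, intronic or in a UTR was not analysed here.
Z00024712-1: ttctagcagcccaaggtgacagagccaagt
Z00001912-1: cttaatttttaacggtgattaaaatattta
Z00021383-1: agtcactgtatcaaataaatgtttattgat
Z00032469-1: aaaatcgcgctgggatcaaccgcagctgcg
Z00073737-1: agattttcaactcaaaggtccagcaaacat
Z00024712-1 (chr9:107551005-107551034, plus strand) lies within the span of Zmynd10 and reads the strand of that gene, which is needed to assemble the dynein arms of motile cilia. It rose from 0.00 and 0.11 in wild type to 1.75 and 1.59 in clone 4 and 1.93 and 1.92 in clone 7. The difference was 1.74 (SE 0.06, adjusted p = 5.36e-08, limma), after 0.01 at 18 h. This is a dim probe, with a mean sample intensity of 516 over all arrays, against a median of 583 over all probes.

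Z00001912-1 (chr17:33919284-33919313, plus strand) lies within the span of Zbtb22, a gene of the BTB zinc finger family, just before the start of Tapbp. It fell from -0.62 and -0.60 in wild type to -1.80 and -1.79 in clone 4 and -1.69 and -1.63 in clone 7 (difference -1.12, SE 0.03, adjusted p = 3.03e-08, limma). At 18 h the difference was -0.12 (adjusted p = 0.051). Z00021383-1 (chr2:181582117-181582146, minus strand) lies upstream of Uckl1, within the span of Zfp512b on the same strand and of Uckl1os on the other. It fell from 0.03 and 0.06 in wild type to between -0.81 and -0.77 in knockout cells (difference -0.84, SE 0.04, adjusted p = 3.03e-07, limma), and lies in the streaked band. Z00032469-1 (chrX:20617323-20617352, minus strand) lies within Ndufb11, which encodes a subunit of mitochondrial complex I. It read 1.27 and 1.32 in wild type and 1.87 to 2.04 in knockout cells, a rise of 0.67 (SE 0.04, adjusted p = 6.21e-07, limma). Z00044170-1, within Ndufa11, another complex I gene, went the other way with -0.46 (SE 0.04), and lies in the streaked band.

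Z00073737-1 (chr12:77409904-77409933, minus strand) lies within Fut8, the enzyme of core fucosylation, but reads the opposite strand. It was higher in knockout cells at 18 h (0.29, adjusted p = 0.00215) and lower at 72 h (-0.67, adjusted p = 2.03e-06, limma). The 72 h values were 1.82 and 1.87 in wild type, 1.47 and 1.37 in clone 4, and 0.95 and 0.91 in clone 7, so clone 7 was the lower of the clones. Z00032074-1, whose first 45 bases match the transcript start of the ribosomal protein gene Rpl10a, rose by 0.60 (SE 0.08), from 1.08 and 1.21 to between 1.52 and 1.94; it lies in the streaked band, and near-identical copies of ribosomal protein genes could share its signal.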

How the data were processed

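The 12 arrays were scanned and read by the authors with Agilent Feature Extraction (version A.7.5.1, per the file headers), and the deposited scanner files hold Cy3 and Cy5 intensities per spot and a log10 ratio computed by the software. A deposited values table gives log10 values for 25674 probes, with column medians from 2.99 to 3.00. Across probes its columns followed the array's ratio plus the mean reference signal, with r of 0.992 to 0.999. They followed the sample channel alone nearly as closely, with r of 0.982 to 0.997. The sign of r gives the direction, but r cannot set the scale. The filter and centring of these values are not stated. Here intensities were corrected with normexp (offset 50), normalised by loess within each array, turned to log2 of sample over reference, and averaged over spots of a probe; flagged spots were left out. limma (3.58.1, R 4.3.3) fitted 6 group means over 12 arrays (6 residual degrees of freedom), with Benjamini-Hochberg adjusted p-values and a threshold of 0.05. On simulated data 49 of 50 probes changed 1.5-fold and 37 of 50 changed 1.25-fold were recovered among 40905, with 14 calls among unchanged ones. Most calls of the pooled comparison were under 1.5-fold (4592 higher and 5495 lower, of 13494). Recovery in the presence of differences between lines, cultures or extraction days, or of the streak, was not tested.

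Leading probes were taken by a rule: called in the pooled comparison and in each clone, arrays not overlapping, well above background on the higher side, then the 12 largest each way; for the clones, the 3 highest and 3 lowest outside the streaked tiles. Placed probes and families were described by size, and those named were picked after their values were seen. The members, lists and rules were chosen with earlier results of these data known. Alternatives covered background, normalisation, filters, blocks and each array left out. The number of arrays limits the precision. No genome was used; sequences of windows and gene spans come from RefSeq, GRCm38.p6.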

Additional observations from a re-analysis of the deposited data

Results flagged for a closer look

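The knockout effect at 72 h differed from that at 18 h at 10036 of 42000 probes by the test of the difference itself, 4285 of them higher and 5751 lower at 72 h. Clone 7 differed from clone 4 at 72 h at 2043 probes, a count that moved when any of the 4 knockout arrays was left out, as given above. Extraction day cannot be told apart from clone 7, so its part was not tested. Among the 4 knockout arrays at 72 h, Dixon's test set no array apart from the other 3 in the 29 probes named. For probes chosen because the clones differ, the arrays split 2 against 2 and a single outlying array could hardly show, so this says nothing about them.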

How the results depend on the processing

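Of 92 recomputed counts, 82 stayed within 1.5 times the value reported. The filter on dim probes passed all 42006 probes. Counts and values made without it, which are included here, therefore repeat the main ones. The sample channel alone gave 8811 calls for knockout against wild type at 72 h, 6603 for clone 4, 5191 for the change in effect between the times and 3078 for clone 7 against clone 4. That last comparison gave 848 with median centring and 332 with the 6 arrays at 72 h alone. Leaving out 1 array gave 10707 to 14437 calls for the pooled comparison, 9050 to 9772 for clone 4, 11166 to 13901 for clone 7, 7995 to 11408 for the change in effect and 564 to 3751 between the clones. With the replicate block the pooled comparison had 13324 calls; the deviations of same-numbered arrays correlated between -0.16 and 0.36 over 15 pairs of groups, 2 of them over 0.1 (the highest between the clones at 18 h), so the numbers were not taken as pairs, and the block moved no count by over 1.5 times. With extraction day as a term the pooled comparison had 11782. All clone 7 arrays, and no others, share a day, so that term takes out the offset of clone 7 and cannot adjust for day. With the line as a random block the pooled comparison had 11368. Wild type is a single line, so the block cannot separate line from genotype. Outside the streaked tiles, a choice made after seeing the data, the pooled comparison had 12554. Every one of 474 recomputed values of the 24 leading probes kept its direction and its call. These probes were chosen for large, non-overlapping differences on the same arrays, so this could hardly come out otherwise. With no background correction 8 of them shrank by over 1.5 times, for example Z00004353-1 to -1.46 and Z00002490-1 to -1.32, and Z00003765-1 grew to -5.95 in the sample channel alone; the cause was not tested. Of the 24, 19 are in the deposited values table. No alternative moved the median of all probes by over 0.1. Dim probes bound the precision: the median signal is close to that of the negative controls.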

Other observations

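A pair of sequence families, of 11 probes each, split the 2 wild-type arrays at 72 h. The family led by Z00063589-1 had a median log2 ratio of -1.60 on the first wild-type array and -3.20 on the second, and between -2.14 and -1.78 on the 4 knockout arrays. All 6 arrays at 18 h read between -3.48 and -3.10. The family led by Z00063673-1 behaved alike, with -1.59 and -3.35 in wild type at 72 h. Across the members of each, the second wild-type array was lower than the first by at least 1.07. The median knockout differences were 0.39 and 0.41, and no member was called. Over all probes these 2 arrays differed with an SD of 0.106.

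Base composition went with the share of called probes. Among probes of at most 35% GC, 23.7% were called lower at 72 h and 14.9% higher, and among those over 50% GC, 13.3% and 13.5%. Their median sample intensities were 543 and 609. Probes holding AATAAA were called more often in each direction, 19.2% higher and 23.6% lower, against 13.7% and 17.7% of the others, with median intensities of 666 and 580. At least 2-fold higher were 2.01% and 0.781%. Probes are not independent, and no test was run.

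Some probes were printed under different names with the same sequence. The 51 such pairs, read on the same arrays, differed in their fitted knockout effect at 72 h by a median of 0.06 and at most 0.25 on the log2 scale.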
